A study of Mus musculus with 8 samples.

Results

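The genes described here are 6 regulators of gene activity: the acetyltransferase coactivators Ep300 and Crebbp, the corepressor Ncor1, and the methylcytosine dioxygenases Tet1, Tet2 and Tet3. They were chosen by name, and all peaks carrying these names in 4 lists of m6A peaks were taken. Of the 6 genes, 5 held a peak, out of 5981 genes with a peak in any list. Their 76 peaks formed 23 regions, out of 13116. A region joins peaks of any of the lists whose blocks have 1 base or more in common on a strand, so that an intron inside a spliced peak does not count.

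Peaks came from MeRIP-seq, in which RNA is pulled down with an antibody against N6-methyladenosine (m6A) and sequenced next to the input RNA. The tissue was GAS (gastrocnemius) muscle of 10-week-old male C57BL/6 mice, with no transgene or drug named in the labels. The denervated group held 2 replicates, taken 14 days after denervation, and the innervated group held 2 replicates of the untreated muscle of the opposite leg, so the innervated muscles came from animals denervated on the other side. The labels do not say whether the replicates are separate animals, nor whether a muscle is pooled, so spreads between replicates may be technical. The lists held 9804 and 9496 peaks in denervated muscle, and 9327 and 10300 in innervated muscle. Of 12 defining genes of skeletal muscle fibres, such as Ttn, Acta1 and Ckm, 0 held a peak in any list. A peak list does not measure transcript levels, so the tissue could not be checked by expression.

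Ep300 (p300) and Crebbp (CBP) are closely related lysine acetyltransferases that DNA-binding factors recruit to enhancers and promoters, where they acetylate histones and open the way to transcription. In muscle they are known as partners of MyoD and of MEF2 factors. Ncor1 works in the other direction. It is a scaffold that ties unliganded nuclear receptors and other repressors to the histone deacetylase Hdac3, and in mouse muscle it is known as a brake on oxidative metabolism. The Tet enzymes oxidise 5-methylcytosine in DNA, the first step of active demethylation. m6A marks on messenger RNA, deposited by the Mettl3 and Mettl14 complex, are read by YTH proteins and influence the stability and translation of the transcript.

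Of the 5 genes with peaks, Ep300, Crebbp, Tet2 and Tet3 were called in all 4 libraries. Over all genes, 48.8% of 5981 were called in all 4. Ncor1 was called in the innervated libraries only, as were 3.14% of all genes. No gene of the 6 was called in the denervated libraries only, as 3.41% of all genes were. Tet1 held 0 peaks in every library, by gene name and also by gene body (chromosome 10, 62804570 to 62887469, minus strand, mm10). Without read counts, this does not show that Tet1 RNA was unmethylated or absent.

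**Figure D1:**
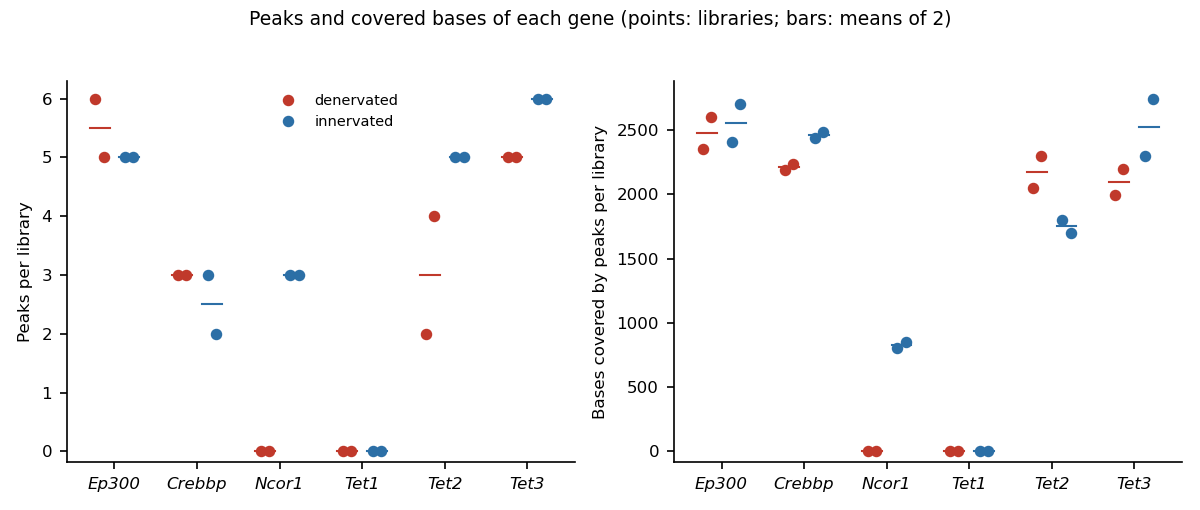
Peaks (left) and bases covered by peaks (right) of each gene in each library, with denervated muscle in red and innervated muscle in blue, points for libraries and bars for the mean of 2. Ncor1 stands at 0 in denervated muscle and at 3 peaks in innervated muscle, and Tet2 has fewer peaks but more covered bases in denervated muscle.

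Ncor1 held 3 regions, and every one of them was present in both innervated lists and in neither denervated list. Ncor1 had 0 and 0 peaks in denervated muscle, against 3 and 3 peaks in innervated muscle. The bases covered were 0 and 0 in denervated muscle, against 802 and 852 in innervated muscle. The groups did not overlap, and the innervated replicates covered largely the same bases, with a Jaccard index of 0.737 (shared bases over all bases covered in either).

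The Ncor1 sites lay at 51.8%, 59.4% and 98.5% of the gene span counted from the 5′ end. On chromosome 11, minus strand, a site from 62317575 to 62318025 lay 1912 bases from where the gene span ends on its 3′ side, with 351 bases covered by both innervated lists. A site from 62373116 to 62373366 lay 57453 bases from that end, with 201 bases in common. The remaining site was spliced, from 62383206 to 62384797. Both innervated lists placed its gap, read here as an intron, at the same bases, between 62383375 and 62384718, which leaves out 1342 bases. How the lists set their gaps is not known, so the shared position does not show that joined RNA was read.

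Ncor1 was thus among the innervated-only genes with several regions. Of the 188 innervated-only genes, 26 held at least 3 innervated-only regions (13.8%, or 0.435% of all genes), and of the 204 denervated-only genes, 22 held at least 3 denervated-only regions (10.8%, or 0.368% of all genes). Ncor1 covered a mean of 827 bases in the innervated libraries, where the median of innervated-only genes was 350, with quartiles of 250 and 550. Its peaks had rather large scores. The score is the authors' own value for a peak; small scores were read as strong peaks, which is uncertain, and each score was turned into a percentile of its list that is 100 at the smallest score. The best Ncor1 peak stood at percentile 37.1 in innervated replicate 1 and 31.7 in innervated replicate 2. The mean of 34.4 compares with a median of 50.2 over innervated-only genes and lay within their quartiles of 31.7 and 69.3. When each list was limited to the 50% of its peaks that had the smallest scores, Ncor1 had no peak at all. Muscle is a mixture of cells, and peak calls depend on how much of a transcript there is: fewer cells of a type, less RNA per cell and less methylation cannot be told apart here.

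Markers of other cell types were looked up as well, and in no cell type were the counts of the 2 groups apart. Of 7 Schwann cell genes, 1 and 1 had a peak in denervated muscle, against 0 and 1 in innervated muscle. Of 4 satellite cell genes, 2 and 2 were called in denervated muscle, against 0 and 2 in innervated muscle. The neurotrophin receptor Ngfr and the myogenic factor Myod1 were denervated only, as 3.41% of all genes were. Endothelial genes numbered 4 and 2 of 6 in denervated muscle, against 2 and 3 in innervated muscle, fibro-adipogenic genes 2 and 1 of 5 in both groups, and macrophage genes 0 of 6 in every library. Their part in the result for Ncor1 was not tested.

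**Figure D2:**
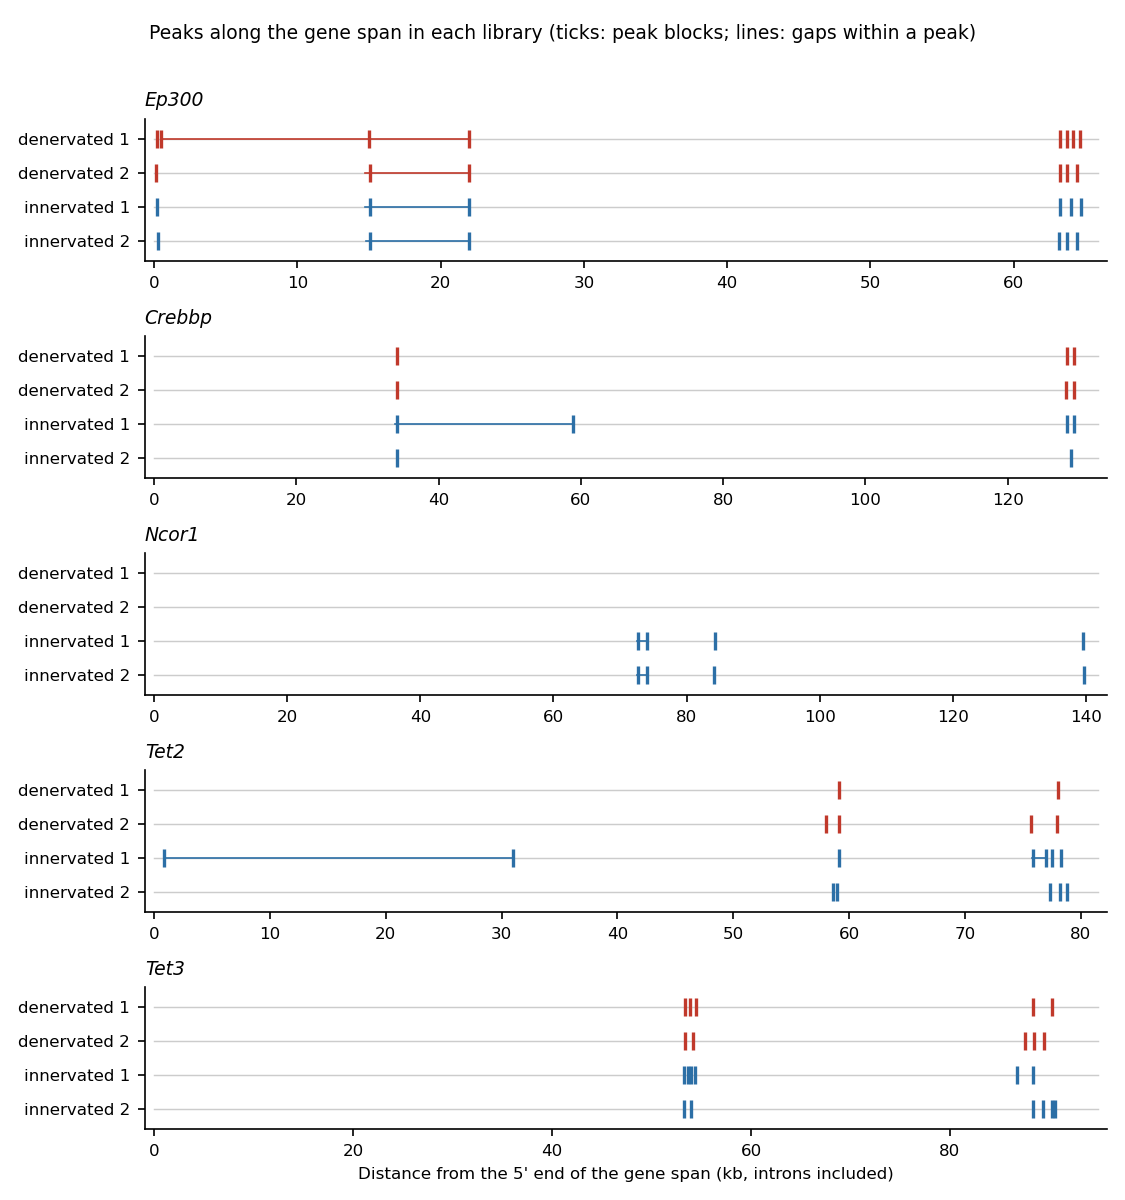
Peaks along the span of each gene in each library, from the 5′ end of the gene (left) in kilobases with introns included. Ticks mark peak blocks and horizontal coloured lines mark gaps inside a peak, and the 3 Ncor1 sites appear in the innervated rows alone.

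Ep300 carried 4 regions, all of them called in all 4 libraries. It had 6 and 5 peaks in denervated muscle, against 5 and 5 peaks in innervated muscle. None of the 4 genes called in all libraries had more peaks in both denervated libraries than in both innervated ones, as 4.86% of all such genes did. The bases of Ep300 covered were 2355 and 2604 in denervated muscle, against 2404 and 2704 in innervated muscle. In both measures the groups overlapped, in peaks also after joining those at most 100 bases apart (4 and 3 in denervated muscle, against 5 and 4 in innervated muscle), with means of 2480 ± 176 and 2554 ± 212 bases (SD, n = 2 each). For Ep300, the mean Jaccard index was 0.734 within groups and 0.781 between groups.

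The Ep300 sites lay toward both ends of the gene span. On chromosome 15, plus strand, the first site, from 81586314 to 81586614, began 105 bases from the 5′ end of the gene span and covered 151 and 101 bases in denervated muscle, against 151 and 301 bases in innervated muscle. The next ran across introns from 81586664 to 81608250. All 4 libraries placed a gap of 6651 bases at exactly the same place, between 81601545 and 81608197. They shared 547 bases on its left side but only 4 on its right side. As for Ncor1, the shared position does not show that joined RNA was read. In denervated replicate 1 that peak also reached 59 bases further upstream, across a gap of 14185 bases, so that a whole block of 638 bases stood between the gaps.

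The remaining Ep300 sites lay close to the 3′ end, from 81649128 to 81649778 and from 81649828 to 81651227, the second ending 850 bases before the end of the gene span. The first of them covered 401 and 651 bases in denervated muscle, against 601 and 551 in innervated muscle. The second covered 1102 and 1251 bases in denervated muscle, against 1051 and 1251 in innervated muscle, in 2 or 3 pieces. Neither separated the groups. The libraries split this stretch into pieces at different positions.

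Crebbp, the closest relative of Ep300, had 2 regions, both called in all 4 libraries. A region lay near the 3′ end, as in Ep300, and the upstream region began 33856 bases from the 5′ end of the gene span, introns included. Crebbp had 3 and 3 peaks in denervated muscle, against 3 and 2 peaks in innervated muscle. The site near the 3′ end, on chromosome 16, minus strand, from 4084098 to 4086036, covered 1741 and 1642 bases in denervated muscle, against 1741 and 1840 in innervated muscle. All 4 libraries shared 1543 bases of it, or 79.6%, the largest share of any of the 11 regions of these genes that were called in all 4 libraries. It ended 2764 bases before the 3′ end of the gene span.

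The upstream Crebbp site, ending at 4180101, covered 448 and 597 bases in denervated muscle, against 697 and 647 in innervated muscle. The groups did not overlap at this site, and the share of all regions that separate in covered bases was not computed. In innervated replicate 1 its peak crossed a gap of 24390 bases, between 4155033 and 4179424, and the block on the 5′ side of the gap was 678 bases long. Over both sites, Crebbp covered 2189 and 2239 bases in denervated muscle, against 2438 and 2487 in innervated muscle, with means of 2214 ± 35.4 and 2462 ± 34.6 (SD, n = 2 each), a ratio of 0.899. Of 2921 genes called in all libraries, 17.2% had both denervated libraries below both innervated ones in covered bases, so such a separation was common.

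The scores placed Ep300 and Crebbp on the small side of the lists. The best Crebbp peak stood at percentiles 78.6 and 73.5 in denervated muscle, against 77.6 and 75.5 in innervated muscle. That of Ep300 stood at 77.1 and 66.7 in denervated muscle, against 69.2 and 75.8 in innervated muscle. The median of the mean best percentile was 69.0 over the 4 genes called in all libraries and 55.3 over all 2921 such genes. The best percentile is the highest over a gene's peaks, so it depends on their number. These 4 genes had a median of 4.62 peaks per library, against 2 over all such genes. None of the 4 genes had a higher best percentile in both denervated libraries than in both innervated ones, as 16.6% of all such genes did. Peaks of a gene in a list often carried equal scores, as 60 of the 76 peaks described here did (78.9%, beside 66.2% of all peaks), so these ranks may belong to the gene rather than to a site.

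**Figure D3:**
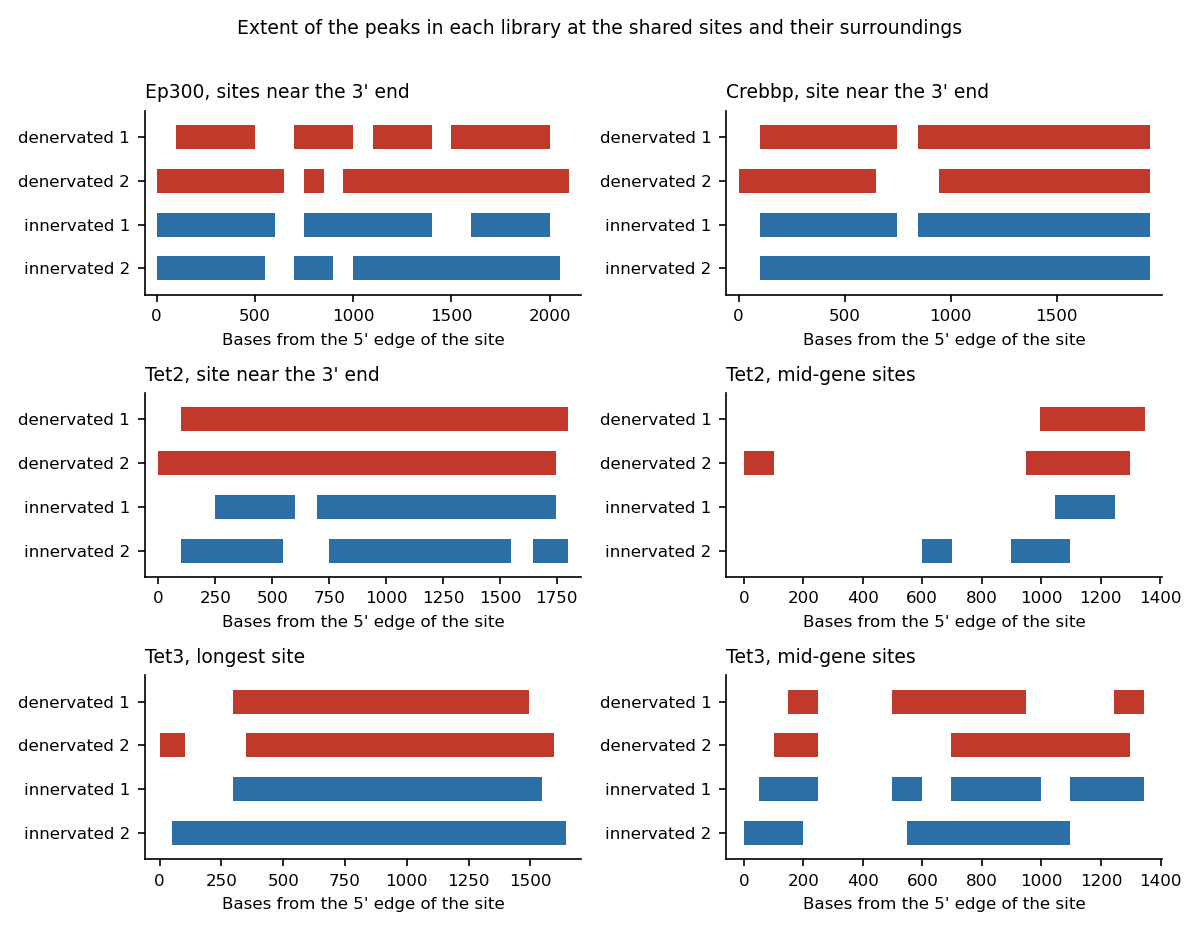
Extent of the peaks in each library (denervated in red, innervated in blue) at shared sites of Ep300, Crebbp, Tet2 and Tet3 and their surroundings, in bases from the 5′ edge of each site. The Tet2 site near the 3′ end is a continuous bar in the denervated rows and is split into 2 or 3 pieces in the innervated rows. Some of these pieces are at most 100 bases apart.

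In Tet2 the groups were apart in both the number of peaks and the covered bases, in opposite directions. Tet2 had 2 and 4 peaks in denervated muscle, against 5 and 5 peaks in innervated muscle. It covered 2048 and 2299 bases in denervated muscle, against 1801 and 1700 in innervated muscle. The groups overlapped in neither measure, with means of 2174 ± 177 and 1750 ± 71.4 bases (SD, n = 2 each), a ratio of 1.24. Over all genes called in all libraries, 6.44% had fewer peaks in both denervated libraries, 15.6% had more covered bases in both, and 1.16% had both at once. The separation in peaks rested on how the peaks were split: with peaks at most 100 bases apart joined, Tet2 had 2 and 4 peaks in denervated muscle, against 4 and 4 in innervated muscle, and the groups overlapped.

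Most of the difference in bases lay at the main Tet2 site, on chromosome 3, minus strand, from 133466271 to 133468067, which lay 2594 bases from the 3′ end of the gene span. It covered 1698 and 1747 bases in 1 piece each in denervated muscle, against 1399 and 1400 bases in 2 and 3 pieces in innervated muscle. With peaks at most 100 bases apart joined, innervated replicate 1 also had 1 piece there, so the split did not separate the groups. The 4 libraries had 1200 of its bases in common. The other shared Tet2 site, from 133485810 to 133486259, covered 350 and 350 bases in denervated muscle, against 200 and 200 in innervated muscle. For covered bases, the share of all regions that separate the groups was not computed. Only 50 of its bases were common to all 4 libraries (11.1%). Tet2 had 1 region in all libraries, in place of 2, with a reciprocal overlap of at least 50%, with an equal number of peaks per list, and with the 50% of smallest or of largest scores. The reciprocal rule also gave Tet2 1 innervated-only region, in place of 0.

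Besides these, Tet2 held 5 regions in 1 library each, all of 100 or 101 covered bases. Among them, innervated replicate 1 alone had a spliced peak that joined 10 and 91 bases across a gap of 30026 bases, 846 bases from the 5′ end of the gene span. The best Tet2 score stood at percentiles 63.1 and 64.3 in denervated muscle, against 68.4 and 67.4 in innervated muscle. Both denervated values were below both innervated values, as in 17.3% of the genes called in all libraries.

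Tet3 differed from Tet2 in the direction of its covered bases. Tet3 had 5 and 5 peaks in denervated muscle, against 6 and 6 peaks in innervated muscle. It covered 1998 and 2196 bases in denervated muscle, against 2297 and 2744 in innervated muscle. The groups did not overlap in either measure, with means of 2097 ± 140 and 2520 ± 316 bases (SD, n = 2 each), a ratio of 0.832. Separations in these directions were found in 6.44% (peaks) and 17.2% (covered bases) of all genes called in all libraries. With peaks at most 100 bases apart joined, Tet3 had 5 and 5 peaks in denervated muscle, against 4 and 5 in innervated muscle, so that the groups overlapped and the denervated mean was the higher, at 5 against 4.5. Over the 4 genes called in all libraries, the median ratio of covered bases was 0.935, beside 1 over all such genes, with quartiles of 0.867 and 1.16.

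Tet3 peaks lay in 2 stretches. On chromosome 6, minus strand, the longest site ran from 83368100 to 83369744, 5727 bases from the 3′ end of the gene span. It covered 1196 and 1347 bases in denervated muscle, against 1246 and 1595 in innervated muscle, with 1146 bases common to all 4 libraries (69.7%). Around it lay 4 smaller regions called in 1 or 2 libraries, and innervated replicate 2 held 3 of them. The mid-gene stretch held a site from 83402719 to 83403566 and another from 83403815 to 83404064, both called in all 4 libraries. Their libraries agreed less, with 250 bases (29.5%) and 51 bases (20.4%) in common.

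Among the 4 genes called in all libraries, the best percentile of a gene varied most between libraries in Tet3. The best Tet3 peak stood at percentiles 54.1 and 36.6 in denervated muscle, against 60.3 and 50.2 in innervated muscle, and the groups overlapped. At the longest site the percentiles were 11.0 and 34.6 in denervated muscle, against 60.3 and 50.2 in innervated muscle, and there they did not overlap. At both mid-gene sites they were 54.1 and 36.6 in denervated muscle, against 49.0 and 19.7 in innervated muscle, and overlapped. The share of all regions that separate in this measure was not computed. When each list was limited to its 50% of smallest scores, Tet3 was no longer called in all libraries and kept 0 regions called in all 4.

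**Figure D4:**
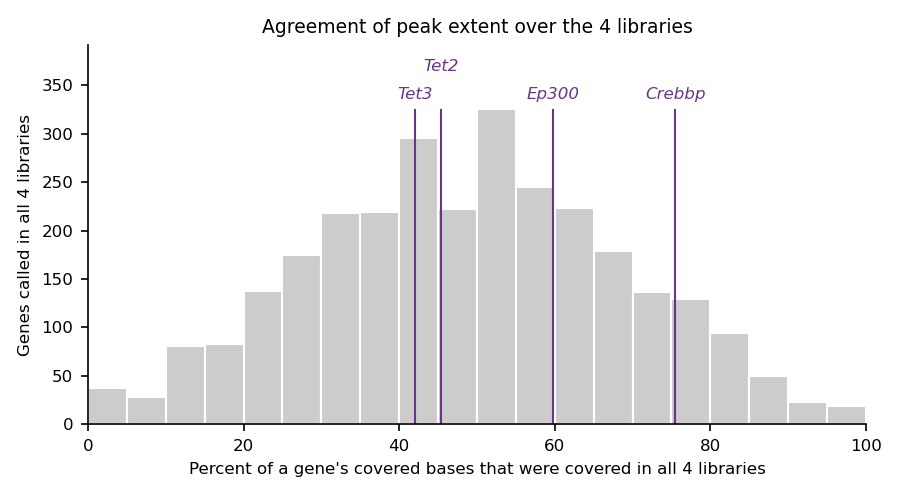
Histogram, over the 2921 genes called in all 4 libraries, of the percent of a gene's covered bases that all 4 libraries covered, with lines for the 4 genes described here. Crebbp (75.5%) and Ep300 (59.8%) stand to the right of the median of 48.5%, and Tet2 (45.4%) and Tet3 (42.0%) to its left.

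Peaks of the acetyltransferases agreed in extent over a larger share of their bases than those of the Tet genes. The percent of covered bases common to all 4 libraries was 75.5% for Crebbp, 59.8% for Ep300, 45.4% for Tet2 and 42.0% for Tet3, beside a median of 48.5% and quartiles of 34.3% and 62.5% over all genes called in all libraries. These 4 genes covered a median of 2320 bases per library, against 734 over all such genes, and held a median of 2.5 regions called in all 4 libraries, against 1. In Ep300, Crebbp, Tet2 and Tet3 alike, the longest unspliced site called in all libraries lay toward the 3′ end. Its middle lay at 97.6%, 97.2%, 95.7% and 93.1% of the gene span counted from the 5′ end, introns included. The share of other genes with such a site was not computed, so this is not shown to be particular to these genes.

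Of the 23 regions of these genes, 11 (47.8%) were called in all 4 libraries, beside 34.6% of all regions. Another 3 (13.0%) were innervated only, beside 4.20% of all regions, and all 3 belonged to Ncor1. None was denervated only, beside 3.67% of all regions, and 7 were called in 1 library only (30.4%, beside 32.3% of all regions). Together the 6 genes had 16 and 17 peaks in denervated muscle, against 22 and 21 in innervated muscle. Without Ncor1 these were 16 and 17 in denervated muscle, against 19 and 18 in innervated muscle. Of the genes other than Ncor1, only Tet2 and Tet3 had fewer peaks in both denervated libraries than in both innervated ones. With peaks at most 100 bases apart joined, the groups overlapped in Tet2 and in Tet3. The covered bases of the 6 genes were 8590 and 9338 in denervated muscle, against 9742 and 10487 in innervated muscle. Without Ncor1 the groups overlapped in covered bases, with 8590 and 9338 against 8940 and 9635. Where the 2 groups of a gene did not overlap, the two-sided exact permutation p was 0.333, the smallest that 2 against 2 libraries can give.

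Partner genes of these regulators were mostly called in all libraries or not at all. Of 27 acetyltransferases and coactivators, 18 had a peak and 11 were called in all 4 libraries (61.1% of those with a peak, beside 48.8% of all genes with a peak), including the MYST acetyltransferases Kat6a and Kat6b and the nuclear receptor coactivators Ncoa1 and Ncoa2. Trrap, a scaffold of acetyltransferase complexes, was innervated only, as 3.14% of all genes were, with 0 and 0 peaks in denervated muscle, against 1 and 3 in innervated muscle. Of 28 genes of corepressor complexes, 12 had a peak and 8 were called in all 4 (66.7%), including the Ncor1 partner Tbl1xr1, the Sin3 complex subunit Sap30 and the CoREST family member Rcor3, and 0 were called in 1 group only.

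Of 23 genes of DNA methylation and demethylation, 13 had a peak and 8 were called in all 4 (61.5%), including the glycosylases Smug1 and Mbd4 and the methyl-CpG-binding family member Mbd3. Uhrf2, a ubiquitin ligase that binds modified cytosine, was denervated only, as 3.41% of all genes were, with 1 and 1 peaks in denervated muscle, against 0 and 0 in innervated muscle. Gadd45a, a stress gene linked to DNA demethylation, was innervated only, with 0 and 0 peaks in denervated muscle, against 1 and 1 in innervated muscle. The DNA methyltransferase genes Dnmt1, Dnmt3a and Dnmt3b and the glycosylase gene Tdg held no peak in any library, as was the case for Tet1.

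The nearest partner genes were found by the sum, over the 4 libraries, of absolute differences in covered bases, among the 43 partner genes with a peak. For Ep300 and for Crebbp these were Med1, a Mediator subunit, at 698 and 914 bases, and Kat6b, at 953 and 927 bases. Among those of Tet2 was Ncoa1 at 1600 bases, and among those of Tet3 was Kat6b at 959 bases. For Ncor1 they were Gadd45a at 1015 bases and Trrap at 1101 bases, the only innervated-only genes of the partner lists. The ranking used the values that define that class, so the shared pattern of calls is not a separate result. Both covered fewer bases than Ncor1: Gadd45a covered 295 and 344 bases in the innervated libraries, and Trrap 151 and 402.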

How the data were processed

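MeRIP-seq gave 8 libraries, an IP and an input for each of 2 denervated and 2 innervated replicates. The authors deposited 4 peak lists, each called for 1 IP library against its input and not pooled. The column used is named score per the file headers; the sources used here do not say what it measures or which peak caller was used. Per the submitters' processing notes, STAR 2.4.2a, ChIPseeker and mm10 were used. A gap in a list's blocks was read as an intron.

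From these lists, peaks were linked into regions over the whole table with Python 3.11.15 and pandas 2.3.3, after a test of the linking on simulated peaks. Of 5987 gene names, 5725 were RefSeq symbols (GRCm38.p6), 249 were matched through older symbols, and 13 had no match. Gene spans came from the same table. Exon and UTR annotation and genome sequence were not used here, and neither were read counts, so depth is unknown. Starts are counted from 1. Denervated only means present in the 2 denervated lists and absent from the 2 innervated lists, and innervated only means the opposite. Libraries were compared by an exact permutation test, two-sided. No read-level test was possible.

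The genes and lists were chosen with earlier results of these data known. The 6 genes were always named; of each partner list, the first 4 called in all libraries and the first 4 called in 1 group only, in list order; and for each of the 6 with a peak, the 2 nearest partner genes. Some genes that this rule selected are not reported here. The genes without a peak that are named, and the marker genes, were picked once their values were known. Alternatives changed the score limit, the list length, the overlap rule, gene assignment, joining of neighbouring peaks and the set of libraries.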

Additional observations from a re-analysis of the deposited data

How the results depend on the processing

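Ncor1 was innervated only, Tet1 was without a peak, and Ep300, Crebbp, Tet2 and Tet3 were called in all libraries under every alternative run, except those by score. With lists limited to the 50% of peaks with the smallest scores, Ncor1 had no peak and Tet3 was not called in all libraries; with the 50% of largest scores, Ep300 and Crebbp had no peak. Regions called in all 4 libraries then numbered 7 and 1, against 11, and innervated-only regions 1 with the smallest scores, against 3. With the largest scores 1 region was denervated only, of Tet3, against 0, and the difference in covered bases (denervated minus innervated, over the 6 genes) turned to 244.5, against -1150.5. A peak limited to 1 side of the score range drops out on the other by construction.

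Leaving out 1 library gave 11 to 12 regions called in all remaining libraries, 0 to 2 denervated-only regions and 3 to 6 innervated-only regions, because the definition loosens; without denervated replicate 1 there were 2, both of Tet2, and without innervated replicates 1 and 2 there were 5 and 6. The difference in peaks then ran from -5.5 to -4.5, and in bases from -1524.5 to -776.5. With the replicate numbers as a block, the differences were the same, -5 peaks and -1150.5 bases (exact p = 0.5, the smallest 2 pairs can give); over 2921 genes the same-numbered libraries did not deviate together (r = -0.00452), and whether a number marks the 2 legs of an animal is not given in the labels. With peaks at most 100 bases apart joined, the Tet2 and Tet3 groups overlapped in peaks, and the mean peak difference of Ep300 and of Tet3 turned (3.5 denervated against 4.5 innervated, and 5 against 4.5). Depth is unknown, so a missing peak may be a matter of coverage.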
